A study of Homo sapiens with 22 samples.

Results

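Replication-dependent histone genes were followed in HEK293T cells, a line derived from human embryonic kidney, by BRIC-Seq. They were taken as the protein-coding genes whose symbols in GENCODE release 44 mark H1 linker histones (H1-1 to H1-6) or clustered H2A, H2B, H3 and H4 genes (H2AC, H2BC, H3C and H4C followed by a number). For each gene the protein-coding transcript with the highest mean count was kept, and genes needed at least 100 counts in all. Of 70 such genes, 58 met the minimum, out of 63475 genes in the files. They comprised 4 H1, 16 H2A, 16 H2B, 10 H3 and 12 H4 genes. The other 12 genes, among them H1-1, H1-5 and H2BC1, had between 0 and 57 counts over all libraries.

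In BRIC-Seq, RNA is labelled with bromouridine (BrU), the label is washed out, and RNA that still carries it is pulled down with an antibody after increasing chase times. HEK293T cells that expressed either a control shRNA (shControl) or shRNAs against ZNF598 (shZNF598) had been labelled with 150 µM BrU for 24 h and then left without it, up to 24 h. There were 2 libraries per shRNA after 0 h, 2 h, 4 h, 6 h and 10 h of chase and 1 per shRNA after 24 h, which makes 22. ZNF598 is an E3 ubiquitin ligase that marks collided ribosomes, and the study asked whether its loss changes how long mRNAs last. The labels do not say whether replicates came from separate cultures, so p-values measure the spread between these libraries, which may be technical. The cells were a bulk population, in which fewer cells making histone mRNA and less of it per cell cannot be told apart.

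The target gene was checked first. In shControl, ZNF598 lay between 4.05 and 8.55 CPM (counts scaled to a common library size) in the 10 libraries of 0 to 10 h, and in shZNF598 between 0.419 and 1.07 CPM. The groups did not overlap, and the level averaged over these times differed by -3.05 in log2 CPM (edgeR quasi-likelihood test, adjusted p = 1.17e-18, SE 0.0868). At 24 h the gap was smaller, where shControl had 4.97 and shZNF598 2.44 CPM. Of the genes listed as HEK293T markers, VIM, KRT8, KRT18, NEFL, NEFM and LIN28B had mean counts of 90.8 to 9148, but PAX2 averaged only 2.8. Of those listed for other cell types, PTPRC, ALB and CDH5 each averaged less than 1. COL1A1, a fibroblast collagen also listed there, averaged 70.2 counts, not far below the lowest HEK293T marker. Libraries held 21220829 to 96963584 counts, the lowest being shControl at 24 h.

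Replication-dependent histone genes encode the core histones and the linker histones that package newly made DNA in S phase. Their mRNAs are unusual in ending with a conserved stem-loop in place of a poly(A) tail. The stem-loop binds SLBP, which acts in 3′ end processing, translation and decay, and these mRNAs are rapidly lost when DNA synthesis stops. Variant histones such as H2AZ1 or H3-3A are instead made throughout the cell cycle, mostly from polyadenylated mRNAs.

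The stem-loop was looked for in the annotated transcripts because it sets these mRNAs apart from the bulk. It was searched on the transcript strand as a stem of 6 base pairs (G-T pairs allowed) that opens with GG and closes with CC, around a loop of 4 bases with T at the first and the third place. It was found after the stop codon in 57 of the 58 genes, starting 22 to 67 bases (median 35) beyond the stop codon. By comparison, 10 of 19854 other protein-coding genes (0.0504%) held such a sequence starting within 67 bases of the stop codon, and 3 of these were histone genes as well, H2AX, H3-4 and H3-7. In 49 of the 58 the kept transcript ended, as annotated, within 10 bases of the stem-loop. The sequences of genes that the results below turn on are printed 5′ to 3′ with the stem-loop in capitals, at GRCh38 (hg38) positions. The first line is a linker histone, the next 4 are H2A genes, then come 2 H2B, 2 H3 and 3 H4 genes:
H1-2 (chr6:26055740-26055764, minus strand): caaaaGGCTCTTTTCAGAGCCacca
H2AC7 (chr6:26198784-26198809, minus strand): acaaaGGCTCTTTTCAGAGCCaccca
H2AC15 (chr6:27837880-27837905, minus strand): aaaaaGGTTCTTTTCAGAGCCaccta
H2AC17 (chr6:27892699-27892724, minus strand): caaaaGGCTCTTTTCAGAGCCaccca
H2AC21 (chr1:149887469-149887493, minus strand): ccaaaGGCTCTTTTAAGAGCCacca
H2BC5 (chr6:26158582-26158607, plus strand): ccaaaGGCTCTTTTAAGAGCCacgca
H2BC17 (chr6:27893865-27893890, plus strand): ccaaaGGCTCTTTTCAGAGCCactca
H3C2 (chr6:26031592-26031617, minus strand): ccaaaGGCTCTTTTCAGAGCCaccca
H3C10 (chr6:27810511-27810536, plus strand): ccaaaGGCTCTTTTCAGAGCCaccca
H4C5 (chr6:26204996-26205021, plus strand): tcaaaGGCCCTTTTCAGGGCCgccca
H4C11 (chr6:27824454-27824479, plus strand): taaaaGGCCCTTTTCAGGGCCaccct
H4C14 (chr1:149833027-149833052, plus strand): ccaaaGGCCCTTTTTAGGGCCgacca

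The class went with the stem. The sequence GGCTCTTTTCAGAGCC was shared by 33 genes, of all classes but H4, and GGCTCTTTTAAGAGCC by 7 genes. All 12 H4 genes had a C-G pair at the fourth place of the stem, as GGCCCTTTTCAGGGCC in 8 genes and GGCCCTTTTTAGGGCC in 4. H2AC15 opened its stem with GGTTC. The gene without a stem-loop was H2BC12L, an H2B gene on chromosome 21. As annotated, the kept transcripts of 6 genes ran far past the stem-loop, by 390 bases in H2AC25, 430 in H2BC6, 769 in H3C10, 1729 in H2BC21, 1862 in H3C6 and 4551 in H2BC26.

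Histone genes are near copies of each other, which limits how far their counts are separate. H2AC18 and H2AC19 had the same count in every library, as had H3C14 and H3C15, and each pair is reported as 1 row, leaving 56 rows. Of 56 genes with a single-exon transcript, 40 had at least 85% of their 50-base windows at a single place in the genome. In 7 genes (H2AC18, H2AC19, H2BC12L, H3C14, H3C15, H4C14 and H4C15) no window was at a single place, although the study kept reads aligned to 1 locus, and these genes still had counts. H4C11 and H4C12 shared 92.1% of the windows of H4C11, and H4C14 and H4C15 shared 100%, so each such pair is close to a single measurement. Overlapping transcripts were each given the same reads: the single-exon and spliced transcripts of H2AC6 both averaged 900 counts. Exons of another gene overlapped 4 members on the same strand (H2AC7, H2AC17, H2BC26 and H3C4) and 4 on the opposite strand (H2AC21, H2BC4, H2BC6 and H4C8). Strand and overlap settings of the counting are not given in the sources used here.

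Per length of the counted model, the most abundant rows belonged to H2A and H4. The level, as mean CPM over 0 to 10 h per kilobase of the counted transcript model, was highest in H2AC18/H2AC19 at 187, H4C14 at 186 and H2AC20 at 181. Next came H4C12 at 117, H2AC12 at 110 and H4C11 at 101 CPM per kilobase. The leading H2B rows were H2BC5 at 97.8, H2BC12 at 84.9 and H2BC11 at 66.0 CPM per kilobase.

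Among H3 rows H3C2 reached 79.9, H3C13 65.4 and H3C14/H3C15 47.8 CPM per kilobase, and among linker histones H1-2 reached 86.7, H1-4 30.6 and H1-3 15.8. These levels and their order are a rough guide only, because the counted models were often longer or shorter than the annotated mRNA. In H3C14/H3C15 1656 nucleotides were counted against 522 annotated. H4C14 and H4C15, both of 396 nucleotides as annotated, averaged 7761 and 7853 counts over models of 194 and 377 codons. H4C15 was therefore not among the leading rows. Together the members took 0.197% to 0.296% of all counts at 0 h. H1-6, H2BC8, H2BC9, H3C4 and H4C9 averaged under 1 CPM and were not tested, which left 51 rows in every comparison, among 79513 transcripts tested.

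Histone mRNA left the labelled pool faster than the bulk of transcripts. In shControl the summed level of the 56 rows was 1728 and 2645 CPM at 0 h, 1749 and 2061 at 2 h, 1175 and 1178 at 4 h, 577 and 617 at 6 h, and 521 and 468 CPM at 10 h. In shZNF598 it was 2470 and 2657 CPM at 0 h, 2197 and 1827 at 2 h, 1300 and 1663 at 4 h, 1009 and 1045 at 6 h, and 451 and 701 CPM at 10 h. Every library of 6 and 10 h lay below every library of 0 to 4 h. Relative to the mean of 0 h, 27.3% of the summed level remained at 6 h in shControl and 40.1% in shZNF598, and at 10 h 22.6% and 22.5%. CPM are relative to the whole library, scaled so that the bulk of transcripts keeps its level, so these are not absolute amounts.

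**Figure D1:**
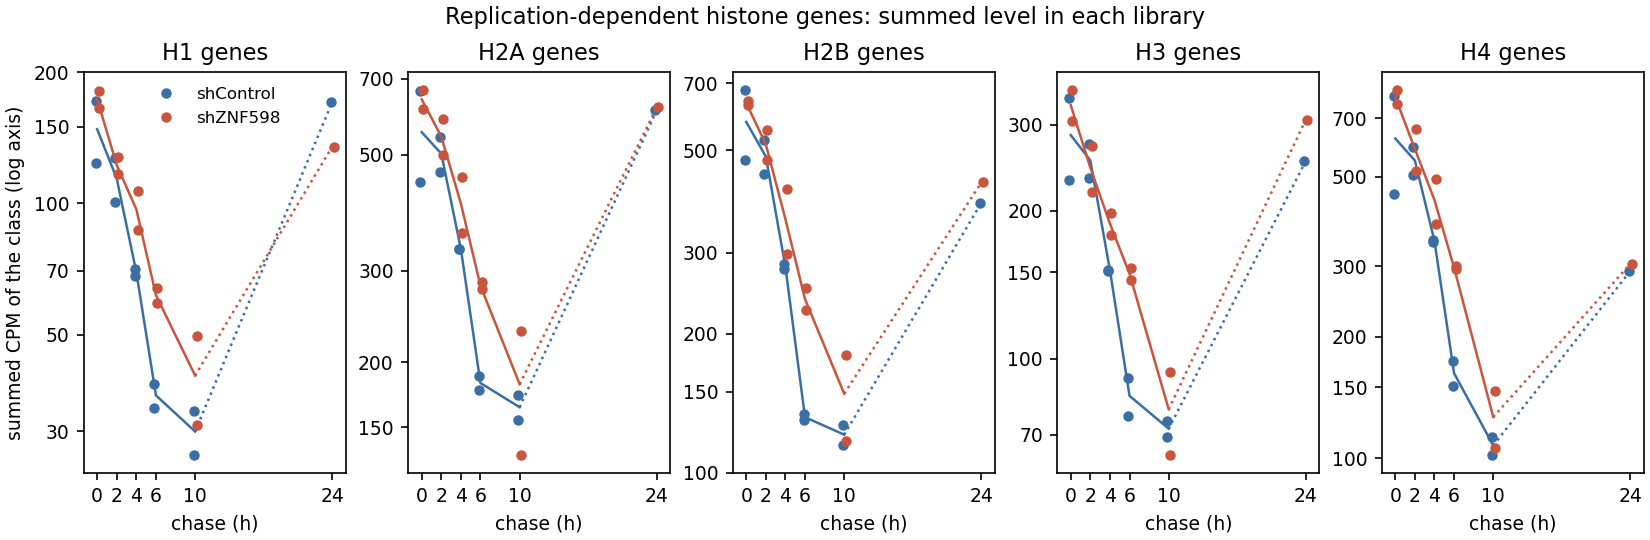
Summed level of each histone class in each of the 22 libraries (y axis, CPM on a log scale) against hours of chase (x axis), with shControl in blue and shZNF598 in red. Points are libraries, solid lines join group means of 2, and dotted lines lead to the single library at 24 h. All classes fall between 2 and 6 h, the 6 h libraries of shZNF598 lie above those of shControl, and levels at 24 h are above those at 10 h.

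By medians, most of the loss in shControl fell between 2 and 6 h, and in shZNF598 it was spread over 0 to 10 h. From 0 to 2 h the median log2 change of the 51 rows was -0.21 in shControl and -0.33 in shZNF598, and the shControl value was 0.16 without replicate 2 of 0 h. From 2 to 6 h it was -1.76 in shControl and -0.97 in shZNF598, against medians near 0 over all transcripts. From 6 to 10 h the median was -0.33 in shControl and -0.84 in shZNF598, where all transcripts had 0.03 and 0.02. With single libraries left out, the shZNF598 median ranged from -1.11 to -0.84 from 2 to 6 h and from -1.2 to -0.55 after it. That of shControl ranged from -1.88 to -1.6 and from -0.42 to -0.21. No row passed the direct test of 6 h against the other times, given below. In shControl 51 of 51 rows fell from 2 to 6 h, where 33.5% of all transcripts did, and in shZNF598 50 of 51, where 32.4% did (edgeR, adjusted p below 0.05).

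H2BC5, an H2B gene, had 66.1 and 82.2 CPM at 2 h and 15 and 14.8 CPM at 6 h in shControl, the largest log2 fall of that interval at -2.31 (SE 0.181, adjusted p = 3e-10). H4C5, an H4 gene, had the largest fall in shZNF598, with a log2 change of -1.62 (adjusted p = 3.32e-08, SE 0.172), and -2.30 in shControl. Both genes were among the 5 with the largest falls in each shRNA, as were H2AC8 and H4C16, at -2.20 and -2.19 in shControl. H3C6, an H3 gene, had already fallen from 0 to 2 h, with log2 changes of -1.09 (adjusted p = 2.26e-05) and -1.17 (adjusted p = 1.05e-05). H3C10 was the exception in shZNF598 from 2 to 6 h, with a log2 change of -0.08, from 23.2 and 16.5 CPM to 20 and 17.7 CPM.

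H4 rows had the most negative change after 6 h. From 6 to 10 h their median log2 change was -0.91 in shControl, where the medians of the other classes lay between -0.36 and -0.12. In shZNF598 the H4 median was -1.48 and those of the other classes -0.80 to -0.49. In H4C14 the 4 libraries of shControl had 39.6 and 45.5 CPM at 6 h and 30.6 and 26.8 CPM at 10 h, whereas those of H2AC18/H2AC19 had 51.0 and 55.0, then 54.3 and 48.1 CPM. The difference between classes was not tested.

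The slope of log2 CPM over 0 to 10 h measures the same loss with all 20 libraries. In shControl 51 of 51 rows had a negative slope that passed the test, against 40.8% of all transcripts, and in shZNF598 51 of 51, against 38.5%. The median slope of the 51 rows was -0.2602 per hour in shControl and -0.2461 in shZNF598, where the medians of all transcripts were -0.0178 and -0.0144. All transcripts in that count include 33.5% and 32.7% with a positive slope. By class, the median in shControl was -0.2584 for H1, -0.2179 for H2A, -0.2608 for H2B, -0.2353 for H3 and -0.289 per hour for H4.

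**Figure D2:**
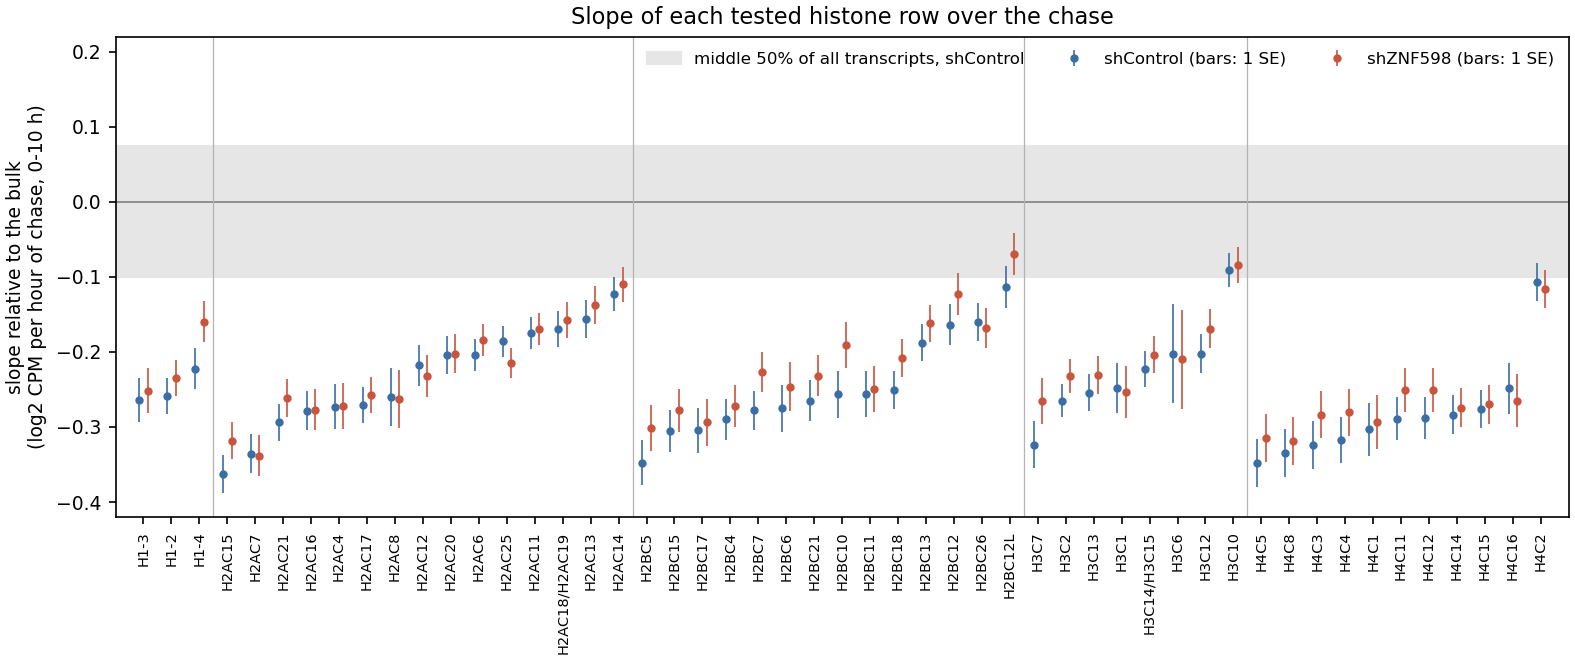
Slope of log2 CPM per hour of chase over 0 to 10 h (y axis) for each of the 51 tested histone rows (x axis, ordered within H1, H2A, H2B, H3 and H4), with shControl in blue, shZNF598 in red and bars of 1 SE. The grey band holds the middle 50% of all tested transcripts in shControl. All points lie below 0. H3C10, H4C2 and H2BC12L are nearest to it in shControl, and H2BC12L, H3C10 and H2AC14 in shZNF598.

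The same genes led in each shRNA. H2AC15 had 4.95 and 8.16 CPM at 0 h and 0.678 and 0.588 CPM at 10 h in shControl, with 5.02 and 7.06 and then 0.53 and 0.798 CPM in shZNF598. Its slope was the steepest in shControl at -0.3621 per hour (SE 0.0253, adjusted p = 1.32e-10), and -0.3181 in shZNF598. H2AC7 was the steepest in shZNF598 at -0.3383 per hour (SE 0.0274, adjusted p = 1.78e-09), with 27 CPM in both libraries of 0 h and 1.97 and 3.27 CPM at 10 h.

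H2BC5, H4C5 and H4C8 completed the leading 5 in both shRNAs, with slopes of -0.3476, -0.3476 and -0.3346 per hour in shControl and -0.3016, -0.3145 and -0.3185 in shZNF598. At the other end stood H3C10, at -0.0903 per hour in shControl (SE 0.0228, adjusted p = 0.0013) and -0.0844 in shZNF598. Next in shControl was H4C2 at -0.1067 per hour, which had -0.116 in shZNF598.

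H2BC12L, the H2B gene without a stem-loop, had slopes of -0.1135 (SE 0.0278) in shControl and -0.0692 per hour (SE 0.0278, adjusted p = 0.0309) in shZNF598. Its counts are not its own alone: 51.0% of its 50-base windows also occur in H2BC12, whose slopes were -0.1635 and -0.1228 per hour. The 6 rows whose transcripts, as annotated, run far past the stem-loop did not share a slope. In shControl H3C10 had -0.0903, H2BC26 -0.1603, H2AC25 -0.1859, H3C6 -0.2024, H2BC21 -0.2651 and H2BC6 -0.2749 per hour, on both sides of the median. The counted models of other rows were also longer than annotated, as in H4C5, with 496 codons counted against 412 annotated nucleotides. The 6 are therefore not all the rows with long counted models, and a link between counted length and slope was not tested.

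The fall was also seen in rows whose sequence is mostly at a single place. The 35 tested rows with at least 85% of windows at a single place had a median slope of -0.2648 per hour in shControl and -0.2535 in shZNF598. The other 16 rows, of shared sequence or spliced transcripts, had medians of -0.2366 and -0.2092 per hour. The choice of transcript mattered in H3C6, whose 2-exon row had a slope of -0.2024 in shControl and whose single-exon row had -0.2801 per hour. In H2BC6 the 4-exon and single-exon rows had -0.2749 and -0.2861 per hour.

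At 24 h histone mRNA was again a larger part of the counts. Whether the RNA pulled down at 24 h still carried label from before the chase was not tested. In shControl 1710 CPM were summed over the rows and in shZNF598 1789, that is 78.2% and 69.8% of the mean at 0 h, and the share of all counts was between 0.140% and 0.153%, against 0.0332% to 0.0507% at 10 h. All 51 rows were higher at 24 h than at 10 h in both shRNAs. A rise of any size was common, as the median log2 difference of all transcripts was also positive, at 0.11 in shControl and 0.09 in shZNF598. The share of all transcripts that rose was not counted. With 1 library per shRNA at 24 h the rise of the histone rows has no replicate check and no test.

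The log2 difference between 24 h and 10 h had a median of 1.70 in shControl and 1.71 in shZNF598, where all transcripts had medians of 0.11 and 0.09. It was over 1 in 48 of 51 rows in shControl, against 13.5% of all transcripts, and in 47 of 51 in shZNF598, against 7.85%. Linker histone H1-3 had the largest difference in shControl at 2.88, from 4.14 and 3.24 CPM at 10 h to 27 CPM at 24 h. In shZNF598 H3C1 had the largest at 2.39.

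At 24 h 15 rows in shControl and 10 in shZNF598, 9 of them in both, lay above their mean of 0 h. The same count was not made over all transcripts, so these numbers have no background. H3C10 was the farthest above, at 53.1 and 59.0 CPM at 24 h against 16 to 24.4 CPM at 0 h. The smallest differences were those of H2BC12L in shControl, 0.77, and H4C5 in shZNF598, 0.78. By class the median was lowest in H4, at 1.43 in shControl and 1.33 in shZNF598.

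**Figure D3:**
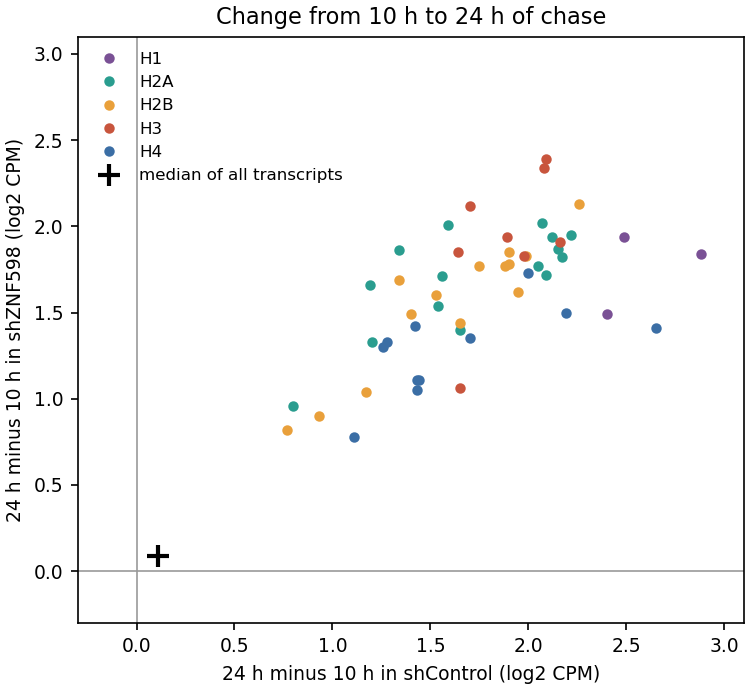
Log2 CPM at 24 h minus log2 CPM at 10 h for each tested histone row in shControl (x axis) and shZNF598 (y axis), coloured by class, with 1 library per shRNA at 24 h. The black cross marks the medians of all tested transcripts, 0.11 and 0.09, and every histone row lies above and to the right of it.

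Histone levels were higher on average with ZNF598 knocked down, and the most rows passed the test at 6 h. Averaged over 0 to 10 h, 37 of 51 rows were higher in shZNF598, where 12.3% of all transcripts were, and 1 row was lower, where 10.1% were (edgeR, adjusted p below 0.05). The median log2 difference of the 51 rows was 0.33, against 0.02 over all transcripts. Of the classes, 2 of 3 H1, 10 of 15 H2A, 11 of 14 H2B, 4 of 8 H3 and 10 of 11 H4 rows were higher. Of the 35 rows with at least 85% of windows at a single place 22 were higher. Of the other 16 rows, of shared sequence or spliced transcripts, 15 were, and rows of shared sequence are not separate measurements. Without the 6 h libraries 11 of 51 rows were higher, where 6187 of 79513 transcripts were. The median of the rows was then 0.21, against 0.02 over all transcripts.

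Before any chase no row passed the test in either direction, where 0.0729% of all transcripts were higher and 0.335% lower, and 3 of 51 (5.88%) had an unadjusted p below 0.05, a smaller share than the 10.1% of all transcripts. The median log2 difference at 0 h was 0.21. It moved to 0.53, with some rows called higher, without replicate 2 of shControl, and to -0.05 without replicate 1. Each of these fits left 1 library in that group, and both called more of all transcripts than the full fit. These 2 libraries differed more than any other pair of replicates (chi-square per degree of freedom 18.8, other pairs 2.31 to 12.6). H2AC25 had the lowest p at 0 h among the higher rows, with 10.4 and 17.2 CPM in shControl and 18.2 and 20.9 CPM in shZNF598 (log2 difference 0.50, SE 0.166, adjusted p = 0.263). Its groups did not overlap, and of the 51 rows 6 had both libraries of shZNF598 above both of shControl at 0 h, an order held by 21.8% of all transcripts.

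The contrasts at single later times were added after the data were seen. At 6 h, 31 of 51 rows were higher in shZNF598, against 0.722% of all transcripts, and none was lower, against 1.57%. The median log2 difference was 0.78, where that of all transcripts was 0.03. Of the 35 rows mostly at a single place 20 were higher, with a median of 0.77, and of the other 16 rows 11, with 0.84. In 49 of 51 rows both libraries of shZNF598 lay above both of shControl, an order held by 23.8% of all transcripts. The count of 31 rested on single libraries. It fell strongly without replicate 1 or replicate 2 of shControl at 6 h or without replicate 2 of shZNF598. These fits leave 1 library in a group, and fewer of all transcripts were called higher in them too. The median of the rows stayed between 0.73 and 0.85 with any single library left out.

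H2AC21, an H2A gene, had 3.56 and 4.46 CPM in shControl and 8.92 and 8.78 CPM in shZNF598 at 6 h, a log2 difference of 1.15 (SE 0.188, adjusted p = 0.000575). H4C11 had 15.2 and 18.3 CPM against 39.2 and 34.7 CPM, also a difference of 1.15 (SE 0.202, adjusted p = 0.0014), and H4C12, nearly the same sequence, had 1.14. The groups did not overlap in these rows. H2AC21 shares its stretch with exons of BOLA1 on the other strand, whose part in its counts was not tested.

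H2BC17 followed, with 7.06 and 7.07 CPM in shControl and 14.5 and 15.6 CPM in shZNF598 (log2 difference 1.09, SE 0.18, adjusted p = 0.000656). H2BC7 had 1.99 and 2.47 CPM against 4.42 and 4.52 CPM (1.02, SE 0.173, adjusted p = 0.000926). In both H2B genes the libraries of shZNF598 were the higher at 6 h. At 0 h H2BC7 had 9.40 and 12.1 CPM in shControl and 9.44 and 9.28 CPM in shZNF598. H2BC17 averaged 36.9 CPM (SD 10.9) in shControl and 44.6 CPM (SD 1.49) in shZNF598 at 0 h.

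At 2, 4 and 10 h no row passed the test in either direction, though 2 were higher at 4 h with the replicate number as a block. All transcripts were higher in 0.14%, 0.233% and 0.799% and lower in 0.606%, 1.17% and 2.43%, in that order of times. Unadjusted p was below 0.05 in 2, 22 and 6 of 51 rows, that is 3.92%, 43.1% and 11.8%, against 10.9%, 12.2% and 17.2% of all transcripts. The median log2 differences were 0.06, 0.33 and 0.17. At 4 h both libraries of shZNF598 lay above both of shControl in 34 rows, an order held by 23.7% of all transcripts, and the lowest p was that of H1-2 (log2 difference 0.58, SE 0.167, adjusted p = 0.089). Without either shControl library of 0 h, some rows were called higher at 4 h, as were more of all transcripts than in the full fit. At 2 h the lowest p was that of H2AC15 (-0.47, adjusted p = 0.335) and at 10 h that of H2BC12L (0.55, adjusted p = 0.0766). At 10 h some rows were called higher without replicate 1 of shZNF598, as were more of all transcripts than in the full fit. The median of the rows at 10 h was -0.14 without replicate 2.

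Whether 6 h differs from the other times was tested directly, as the difference at 6 h minus the mean difference at 0, 2, 4 and 10 h. No histone row passed, and 0% of all transcripts did in either direction, while 40 of 51 rows had an unadjusted p below 0.05 (2446 of 79513 transcripts in all). The median over the 51 rows was 0.57, and it lay between 0.48 and 0.65 with single libraries left out. The lowest p was that of H2BC7, with 1.04 (SE 0.192, adjusted p = 0.287). Without replicate 1 of shControl at 0 h a few rows passed. With DESeq2 1 row did, where 2 of 79513 transcripts were higher and 5 lower.

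**Figure D4:**
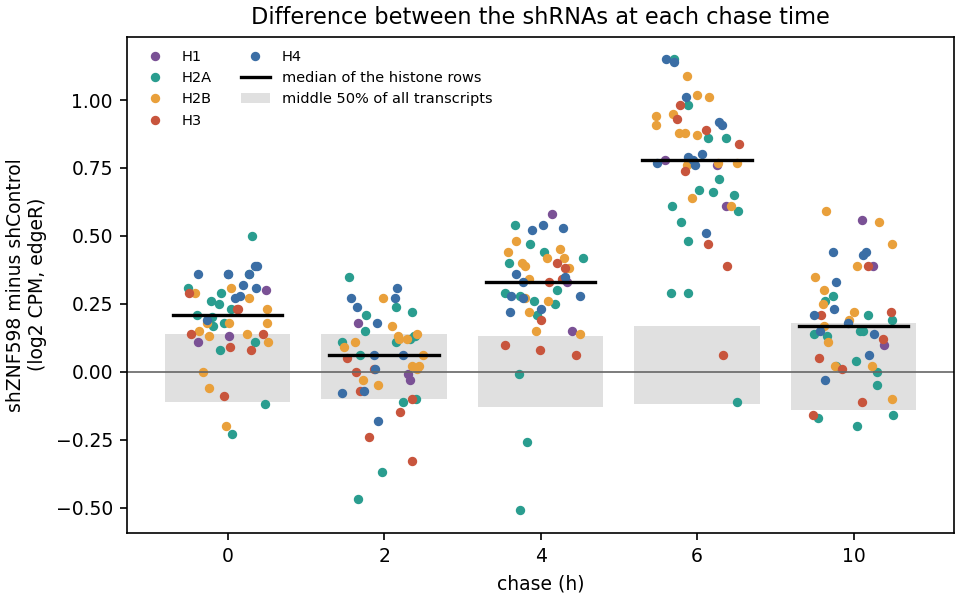
Log2 difference between shZNF598 and shControl (y axis, edgeR) for each tested histone row at 0, 2, 4, 6 and 10 h of chase (x axis), coloured by class, with the median as a black line and the middle 50% of all tested transcripts as a grey bar. The medians are 0.21, 0.06, 0.33, 0.78 and 0.17, and H2AC17 is the only row below 0 at 6 h.

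The overall slopes did not separate the shRNAs. No histone row had a slope difference that passed the test, where 0.00252% of all transcripts had a more positive and 0.113% a more negative slope in shZNF598. No row had an unadjusted p below 0.05, against 5.53% of all transcripts. The median difference in slope was 0.0186 per hour. H1-4 had the lowest p, with slopes of -0.2225 in shControl and -0.16 in shZNF598 (difference 0.0625 per hour, SE 0.0375, adjusted p = 1.0). With the 0 to 6 h libraries alone no row passed either, where 0 of 79513 transcripts had a more positive and 22 a more negative slope.

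Averaged over the chase, the leading rows were H4C12 and H4C11 at a log2 difference of 0.55 each (adjusted p = 9.6e-05 and 9.49e-05), H2AC21 at 0.48, H2BC12L at 0.46 and H1-2 at 0.45. H1-2, the most abundant linker histone row, had 44.3 and 45.8 CPM in shControl and 60.0 and 74.6 CPM in shZNF598 at 4 h, and 22.9 and 20.9 against 37.0 and 38.4 CPM at 6 h. The groups of H1-2 did not overlap at these times, and at 2 h they did, with 62.3 and 79.1 against 84.8 and 75.7 CPM.

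H2AC17 was the row called lower, and H2AC15 had a difference of -0.11 on average that did not pass (adjusted p = 0.522). H2AC17 had 28.6 and 36.4 CPM in shControl and 25.9 and 29.5 in shZNF598 at 0 h, 23.6 and 27.5 against 20.6 and 18.9 CPM at 2 h, and 14.4 and 15.3 against 8.99 and 11.8 CPM at 4 h. At 6 h it had 8.42 and 8.54 against 7.47 and 8.21 CPM, and at 10 h 5.60 and 5.63 against 3.41 and 6.58 CPM. The averaged log2 difference was -0.29 (SE 0.0804, adjusted p = 0.0126), and shZNF598 lay wholly below shControl at 2, 4 and 6 h. Exons of H3C12 overlap H2AC17 on the same strand. The spliced H3C12 transcript that spans this stretch had a log2 difference of -0.07 at 6 h, where the single-exon H3C12 row had 0.47. That spliced transcript can hold reads of H2AC17, and the part of the overlap in either row was not tested.

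Variant histones, listed for comparison, did not move as a block. Of 14 listed genes with a row, 11 were tested. In shControl 7 had a negative and 3 a positive slope that passed the test, and in shZNF598 6 and 3, where 40.8% and 33.5%, then 38.5% and 32.7% of all transcripts had. H2AZ1, a variant of H2A, had slopes of 0.0905 and 0.0493 per hour, H3-3A, a variant of H3, 0.1285 and 0.1101, and MACROH2A1 0.1511 and 0.1139. CENPA, the centromeric H3 variant, had -0.1902 and -0.1783. Of the 11, none was higher by over 1 on the log2 scale at 24 h than at 10 h in either shRNA. Of all transcripts 13.5% were in shControl and 7.85% in shZNF598.

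H2AX, the variant phosphorylated at DNA breaks, was the listed gene with a stem-loop of its own. It had slopes of -0.2119 (SE 0.0205) in shControl and -0.1446 per hour (SE 0.0205) in shZNF598. At 6 h it had 7.68 and 9.33 CPM in shControl and 13.9 and 13.4 in shZNF598, a log2 difference of 0.69 (adjusted p = 0.0287). From 10 to 24 h its log2 difference was 0.75 in shControl and 0.55 in shZNF598, below every histone row above. H3-3B and H3-5, variants of H3, were lower in shZNF598 on average, at -0.25 and -0.20.

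Factors of histone mRNA processing and decay were listed next, with 33 genes tested. Their median slope was -0.0522 per hour in shControl and -0.0521 in shZNF598, with 17 and 16 negative and 9 and 9 positive calls. Of all transcripts 40.8% and 38.5% had negative and 33.5% and 32.7% positive calls. SLBP itself had 19.9 and 20.2 CPM at 0 h and 5.94 and 6.87 CPM at 10 h in shControl, and 19.3 and 21.0 then 6.30 and 6.33 CPM in shZNF598. Its slopes were -0.1836 and -0.1877 per hour (adjusted p = 2.59e-07 and 1.99e-07), and its averaged level differed by -0.11 (adjusted p = 0.138). LSM1 and WDR33 had the negative slopes with the lowest p, CPSF1, LSM4 and LSM7 the positive ones.

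Averaged over the chase, 7 of these 33 genes were higher in shZNF598 and 3 lower, where 12.3% and 10.1% of all transcripts were. NCBP2, a cap-binding subunit, had a log2 difference of 0.30, NPAT, the coactivator of histone transcription, 0.31 (adjusted p = 0.00127), and EXOSC10, an exosome nuclease, 0.15. The lower 3 were XRN1, MIF4GD and CPSF3, at -0.21, -0.20 and -0.12. At 6 h NPAT was the only called gene of the list, with 0.57 (adjusted p = 0.0397), where 0.722% of all transcripts were higher and 1.57% lower.

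All 36 listed S phase and replication genes were tested. On average 4 were higher and 5 lower in shZNF598, where 12.3% and 10.1% of all transcripts were. Their median difference was -0.01. At 6 h none of the 36 was higher, where 0.722% of all transcripts were, and 1 was lower, where 1.57% were. That gene was RRM2, a ribonucleotide reductase subunit, which had 18.5 and 18.1 CPM in shControl and 8.65 and 8.64 CPM in shZNF598 at 6 h and an averaged difference of -0.79 (SE 0.0508, adjusted p = 3.23e-11). E2F1, a transcription factor of S phase entry, was lower, at -0.25 on average, and CCNE2, ASF1B and GINS3 higher by 0.35, 0.24 and 0.21.

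In slope, 23 of the 36 genes had a negative call in shControl and 20 in shZNF598, where 40.8% and 38.5% of all transcripts had. The medians were -0.063 and -0.0536 per hour. CCNA2, ASF1B and CCNE2 had the negative slopes with the lowest p, at -0.1825, -0.1776 and -0.2716 per hour in shControl. POLA1 and POLE had positive slopes. At 24 h 6 of the 36 in shControl and 5 in shZNF598 were higher than at 10 h by over 1 on the log2 scale. Of all transcripts 13.5% and 7.85% were. GINS3 was among the genes over 1, at 1.66 and 1.57.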

How the data were processed

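BRIC-Seq libraries of 22 samples were used. The authors trimmed reads with fastp, removed noncoding RNA and aligned the rest to hg38 with GENCODE release 32 (STAR 2.7.0a, 1 locus per read, CASAVA 1.8 named in the labels), and deposited read counts per transcript from featureCounts, beside a transcript length in codons (other unit). Transcripts were named from GENCODE release 44, so the counted model can differ in length from the annotated one. Spike-ins were not analysed here.

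The 79513 transcripts that averaged 1 CPM or more in the 20 libraries of 0 to 10 h were tested with edgeR 4.0.16 (R 4.3.3, quasi-likelihood, TMM scaling, Benjamini-Hochberg over all of them, 0.05), with 1 mean per group for levels and 1 slope per shRNA for decay. SE is the log2 value divided by the square root of F. CPM use TMM-scaled library sizes. Contrasts at 2, 4, 6 and 10 h, between successive times and of 6 h against the other times were added after the data were seen. Alternatives covered scaling, filter, transcript choice, replicate block, chase window, single libraries and DESeq2 1.42.0. The fits were tested on simulated data. The members and gene lists were chosen with earlier results of these data known. Genes named are the 3 per class with the highest level per length, up to 5 called rows per direction with the largest change or else the lowest p, and called list genes by p; H3C10, H4C2, H2BC12L, H2BC21, H2BC26, H3C6, H2BC6, H3C1, H2AX, SLBP, H1-3 at 24 h and the slopes quoted beside them were added after their values were seen. Some genes of the lists are not reported here by name.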

Additional observations from a re-analysis of the deposited data

How the results depend on the processing

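The counts of negative slopes (45 to 54 rows) and of rows higher on average (32 to 39) stayed within 1.5 times of 51 and 37 under both other scalings, no filter on low counts, 1 row per gene, the canonical transcript and DESeq2, and no slope difference was called under these. Scaling by total counts alone moved the median slope of all transcripts from -0.0178 to -0.0876 per hour in shControl and from -0.0144 to -0.0772 in shZNF598, and the histone medians to -0.3294 and -0.3098. Over 0 to 24 h, only 1 row in shControl and 2 in shZNF598 had a called negative slope. Of all 79513 transcripts 12274 in shControl and 11158 in shZNF598 had one. Without the 6 h libraries 11 rows were higher on average, where 6187 of 79513 transcripts were. DESeq2 called 1 row higher at 6 h against the other times. The replicate numbers did not pair the libraries (12 of 45 pairs of groups correlated above 0.1, median 0.0236, and between shRNAs at the same hour -0.00231, 0.111, 0.325, 0.261 and -0.197 from 0 to 10 h); with a replicate block 41 rows were higher on average, 37 at 6 h and 2 at 4 h, and 51 fell in each shRNA. With single libraries left out, called rows ranged from 0 to 13 at 0 h, 0 to 5 higher and 0 to 1 lower at 4 h, 6 to 42 at 6 h, 0 to 7 at 10 h, 31 to 45 on average, 0 to 2 at 6 h against the other times, and 50 to 51 for each slope, and 46 to 50 for the fall from 2 to 6 h in shZNF598; ZNF598 ranged from -3.11 to -3.00. The cause of these moves was not tested beyond the libraries named. The 24 h libraries have no replicate.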
